A study of Mus musculus with 4 samples.

Results

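The gamma crystallins are small structural proteins of the vertebrate lens, and their RNA was followed here in newborn lenses with and without Hsf4. The 8 mouse genes Cryga, Crygb, Crygc, Crygd, Cryge, Crygf, Crygn and Crygs were looked up among the 45037 non-control probe sets of an Affymetrix mouse expression array, and 8 probe sets named at least 1 of them. Of these, 6 named 1 gene each (Cryga, Crygb, Crygd, Crygf, Crygn and Crygs). A further probe set named both Crygc and Crygb, and another named Cryga together with D630023F18Rik, the coding gene that lies next to Cryga. Crygc therefore had no probe set of its own. None of the 8 named Cryge, whose RNA was therefore not analysed on its own.

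Whole lenses were taken from mice at postnatal day 0.5, labelled as males of the 129S3 background, in 2 groups of 2 arrays. One group was wild type and the other was labelled HSF4 knockout. The labels do not describe the knockout allele, nor whether an array stands for one animal or a pool. A p-value here therefore reflects the spread between arrays and not necessarily that between animals. Arrays carry the numbers 1 and 2 in each group, and the labels tie no litter, day or batch to a number.

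Crystallins fill the fibre cells, the elongated cells that make up most of the lens. The gamma crystallins are monomers packed at very high concentration, mostly in fibre cells laid down before and shortly after birth, and mutations in several of them cause cataract in mice and humans. Crygs, gamma S, is the member associated with the outer, younger fibres. Crygn, gamma N, is a divergent member of the family. Hsf4 encodes heat shock transcription factor 4, whose loss leads to cataract, and the comparison asks how lens RNAs, the gamma crystallins among them, differ in its absence.

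The genes of the family fall into 3 places in the genome. In the RefSeq gene order, Cryge, Crygd, Crygc, Crygb and Cryga follow each other on chromosome 1 with 0 other coding genes between them, and Crygf lies 4 coding genes beyond Cryga. Crygn is on chromosome 5 and Crygs on chromosome 16. The 100 bases before the transcription start are shown for the chromosome 1 pair with the highest identity over these windows. They are also shown for Crygb, as a more distant member of the cluster, and for the genes outside it. All are from RefSeq (GRCm38.p6), run 5′ to 3′ and end at the base before the start. Capitals mark the words TATATA and CCTTTTGTG, and in Crygs the related word TATAAA.
Crygf, chr1:65926422-65926521, plus strand: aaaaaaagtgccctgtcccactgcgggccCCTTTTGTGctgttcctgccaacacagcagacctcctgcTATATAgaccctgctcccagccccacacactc
Crygd, chr1:65063441-65063540, minus strand: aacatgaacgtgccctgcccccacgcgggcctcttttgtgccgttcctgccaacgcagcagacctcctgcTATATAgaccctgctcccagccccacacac
Crygb, chr1:65082291-65082390, minus strand: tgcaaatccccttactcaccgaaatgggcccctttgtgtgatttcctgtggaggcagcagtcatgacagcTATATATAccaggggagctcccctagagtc
Crygn, chr5:24757849-24757948, minus strand: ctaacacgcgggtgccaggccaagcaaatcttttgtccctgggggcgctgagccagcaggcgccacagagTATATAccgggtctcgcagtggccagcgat
Crygs, chr16:22811411-22811510, minus strand: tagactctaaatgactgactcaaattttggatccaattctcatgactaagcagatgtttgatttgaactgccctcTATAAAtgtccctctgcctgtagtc

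All 8 genes had such a sequence. TATATA, which reads the same on both strands, was found in 7 of the 8 genes, against 2.19% of the 32851 promoters of the same length in the table. In Crygd, Crygb and Crygn it began, counting its first occurrence, 30 bases before the start, and in Crygf 32 bases before it. It began 39 bases before the start in Cryga, 29 in Crygc and 18 in Cryge. Crygs was the exception and had TATAAA 25 bases before the start, a word found on either strand in 5.56% of promoters. The word CCTTTTGTG, chosen after the sequences were seen and searched on both strands, was present in Cryga, Crygc, Cryge and Crygf, against 0.110% of all promoters. Heat shock factors bind repeats of the unit GAA and its reverse complement TTC. Neither GAANNTTC nor TTCNNGAA, which read the same on both strands, occurred in the 250 bases before the start of the 8 genes. They occurred in 6.69% and 7.17% of all promoters of that length, and their lack in these windows says only that these letters are not there. Among the 6 genes of chromosome 1 the aligned 100 bases were between 51.2% and 88.3% identical over 15 pairs, highest for Crygd and Crygf. The windows follow the annotated starts and are shifted against each other, as the TATATA positions of Cryge and Cryga show. Bases at the ends without a partner count against identity. The range and the closest pair therefore partly reflect where the windows lie. The 13 pairs that involve Crygn or Crygs had 46.6% to 56.4%.

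The arrays differed in overall brightness, and this touches every value below. Median deposited intensities ran from 6.58 (knockout array 2) to 21.4 (wild-type array 1). Quantile normalization was therefore applied, which replaces each value by the mean of the values that hold the same rank. The brightest Xist probe set, whose RNA is made in female cells, measured 605 and 260 on wild-type and knockout arrays 1 after normalization, against 58.0 and 9.01 on arrays 2. Of the genes of the Y chromosome, the brightest probe set of Kdm5d measured 22.2 and 41.6 on wild-type and knockout arrays 1 and 54.1 and 43.2 on arrays 2, and that of Eif2s3y measured 60.4 and 208 on wild-type arrays 1 and 2. Signals of both kinds were thus present on the arrays numbered 1, whose labels say male, and the sex of those samples is not settled here. Within each number the Hsf4 probe set was brighter on the array labelled knockout, although the groups overlapped. It measured 505 and 138 on wild-type arrays 1 and 2 and 1212 and 413 on knockout arrays 1 and 2. Its position relative to the part of the gene altered in the knockout is unknown here, so it cannot check the labels. Directions below refer to the arrays as labelled. Of the 9 striated muscle markers, 2 passed limma's test, both lower in knockout, against 0.0178% of all tested probe sets. The median log2 change of the list was -2.35, and all 9 lay below wild type in each number, against 27.4% of all tested probe sets. The summed intensity of the list was 2648 and 1321 in wild type and 128 and 138 in knockout. Of the 8 fibroblast markers, 0 passed and 5 had an unadjusted p under 0.05 in limma, against 524 of the 22519 probe sets tested. Of these markers 7 lay below wild type in each number, against the same 27.4%, at a list median of -1.31. They summed to 1992 and 2334 in wild type and 1505 and 1168 in knockout, and Rgs5 alone, a pericyte gene with a change of 0.02, gave 824 and 666 of the wild-type sums and 1089.8 and 516 of the knockout sums. Neural retina markers summed to 2137 and 2138 in wild type and to 2386 and 899 on knockout arrays 1 and 2. The sums of the erythroid markers were 76.6 and 132 in wild type and 114 and 483 in knockout. The part of such tissue in the crystallin values was not tested. In whole lenses, fewer cells of a type and less RNA per cell cannot be told apart.

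The gamma crystallins were among the brightest signals of the newborn lens on every array, with and without Hsf4. The 6 probe sets that name 1 gene ranked between 1 and 46 among the 45037 on all 4 arrays, where rank 1 is the brightest. With the probe set of Crygc and Crygb, 7 of the 8 lay within the top 50 on every array. Brightness also depends on the probes of a set, so a rank places a probe set on its array and does not compare the amounts of RNA of different genes. The lowest of the 6 on any array, Cryga on knockout array 2, still had 55.8% of the highest intensity on that array.

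Crygf, gamma F, had deposited intensities of 13124 and 8259 on wild-type arrays 1 and 2 and of 12039 and 6394 on knockout arrays 1 and 2. Its ranks were 2 and 1 in wild type and 2 and 5 in knockout. The intensity was lower in knockout within both numbers, and the groups overlapped because both arrays numbered 1 were brighter than both arrays numbered 2. Its name on the array ends in _x_at, which marks probes that may also bind related sequences.

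Crygd, gamma D, measured 12058 and 11879.6 on wild-type and knockout arrays 1 and 7623 and 6309 on arrays 2. It ranked 4 on both wild-type arrays and 3 and 6 on knockout arrays 1 and 2. Within number 1 the arrays were nearly equal, and within number 2 the knockout array was dimmer.

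Crygb, gamma B, measured 10836 and 7539 on wild-type arrays 1 and 2, at ranks 9 and 5, and 9599 and 5856 on knockout arrays 1 and 2, at ranks 17 and 8. It stepped down in rank within both numbers. The probe set that names both Crygc and Crygb did not follow it. That probe set measured 13227 and 8038 in wild type and 13059 and 8265 in knockout, and it held rank 1 on every array but wild-type array 2, where it held rank 2.

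Cryga, gamma A, measured 8260.2 and 7895 on wild-type and knockout arrays 1 and 5022 and 4614 on arrays 2. Its ranks were 44 and 46 in wild type and 42 and 28 in knockout, so both knockout arrays ranked it above both wild-type arrays although the knockout intensity was lower within each number. The probe set that names Cryga and D630023F18Rik was far dimmer. It ranked lower on the knockout array within each number, although the ranks of the groups overlapped. It measured 732 and 607 on the wild-type arrays and 515 and 165 on the knockout arrays, at ranks 1866 and 1090 in wild type and 2439 and 1858 in knockout. Which of both genes it measures was not tested.

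The members outside the cluster also ranked within the top 50 on every array. Crygn measured 9862 and 10047 on wild-type and knockout arrays 1 and 5792 and 5527 on arrays 2. It ranked 20 and 22 in wild type and 13 on each knockout array, the second member that ranked higher on both knockout arrays. Crygs measured 10736 and 10455 on arrays 1 and 6426 and 5178 on arrays 2. Its ranks were 11 and 13 in wild type and 9 and 18 in knockout, so the knockout arrays lay on either side of the wild type.

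**Figure D1:**
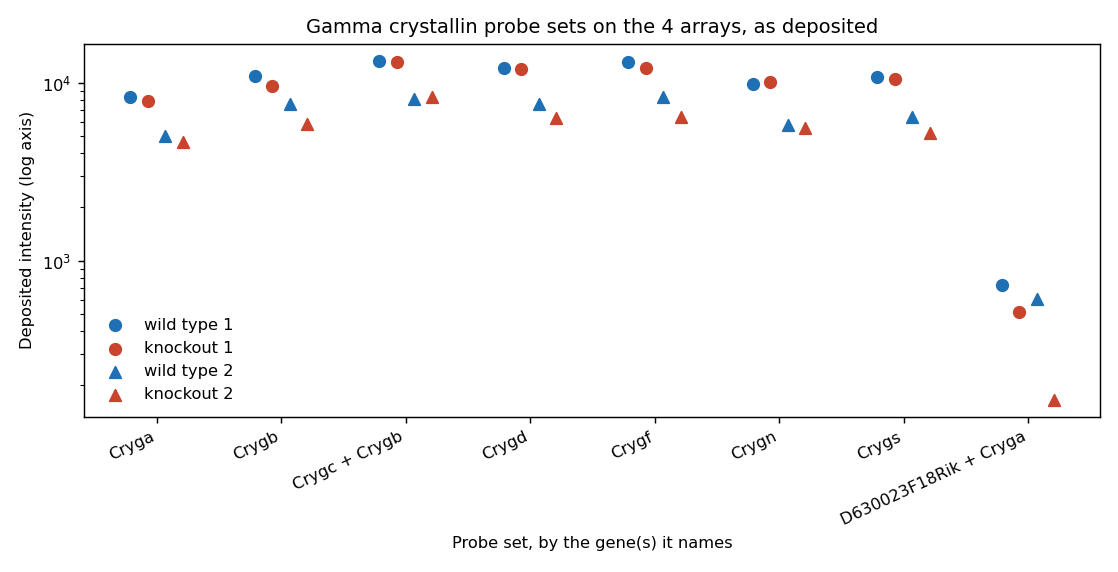
Deposited intensity (log axis) of the 8 probe sets that name a gamma crystallin on each of the 4 arrays, with blue for wild type, red for knockout, circles for arrays numbered 1 and triangles for arrays numbered 2. The probe sets other than that of D630023F18Rik and Cryga lie between 4614 and 13227, and the arrays numbered 1 are above those numbered 2 in both groups.

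With quantile normalization, no gamma crystallin probe set differed between knockout and wild type by more than the arrays' spread allowed limma's test to call. Of the 8, 0 passed an adjusted p of 0.05 (limma, Benjamini-Hochberg over 22519 probe sets) and 0 had an unadjusted p under 0.05. Over all tested probe sets 4 passed, which is 0.0178%. With the array number as a block 0 of the 8 passed, against 1.41% of all. Log2 changes are knockout minus wild type of log2(intensity + 16). For the gamma crystallins their median was -0.04, against -0.01 over all tested probe sets. Within both numbers 2 of the 8 were lower, against 27.4% of all, and 2 were higher, against 25.9%. As deposited, 6 of the 8 were dimmer on the knockout array within both numbers, against 64.4% of all tested probe sets. An exact permutation test of 2 arrays against 2 cannot give a two-sided p below 0.333.

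For Crygs, normalized intensities were 8290.4 ± 40.8 in wild type and 8024 ± 612 in knockout (SD, n = 2). The log2 change was -0.05 (SE 0.15), with a 95% interval from -0.38 to 0.29 and an adjusted p of 1.00 in limma. The interval takes in falls and rises alike, so a change of that size in either direction was not separated from none.

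Crygn measured 7421 ± 62.0 in wild type and 8105 ± 89.7 in knockout (SD, n = 2), and its log2 change of 0.13 had an interval from -0.20 to 0.46. Both knockout arrays were above both wild-type arrays, as for Cryga, whose change was 0.11 (interval -0.24 to 0.47). Such a separation in this direction was found for 12.6% of all tested probe sets, and 2 of the 8 gamma crystallin probe sets had it. The steps of Crygn were 0.13 within number 1 and 0.12 within number 2, and those of Cryga were 0.03 and 0.19.

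Crygf and Crygb had the most negative values among the probe sets of gamma crystallins alone. Crygf measured 10393 ± 438 and 9490.3 ± 839 in wild type and knockout (SD, n = 2), a log2 change of -0.13 (interval -0.46 to 0.19). Its normalized steps were 0.00 within number 1 and -0.27 within number 2. The 0.00 follows from rank 2 on both arrays numbered 1. As deposited, the ratio of knockout to wild type was 0.92 within number 1 and 0.77 within number 2. Crygb measured 8821 ± 515 and 8157 ± 501 (SD, n = 2), with a change of -0.11 (interval -0.45 to 0.22) and steps of -0.12 and -0.11 within the numbers. The probe set of Crygc and Crygb had 0.04 (interval -0.27 to 0.35), and Crygd had -0.03 (interval -0.35 to 0.30). The normalization sets values near the top by rank, so Crygd, at rank 4 on both wild-type arrays, measured 9436 on each, and these small changes are no measure of equality.

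The probe set of D630023F18Rik and Cryga had the widest difference, at 640 ± 223 in wild type and 427 ± 76.6 in knockout (SD, n = 2), a log2 change of -0.53 (SE 0.32, interval -1.25 to 0.19, adjusted p of 1.00 in limma). Its normalized groups were separated only narrowly, by 482 on wild-type array 1 against 481 on knockout array 2, and 14.4% of all tested probe sets had groups separated in this direction. With 1 array left out, its change ranged from -0.18 without wild-type array 2 to -0.87 without wild-type array 1. By the distance between centred log2 profiles over the 4 arrays, the genes nearest to it among 11589 were Pik3r1, a regulatory subunit of phosphoinositide 3-kinase, at 0.045, Chd9 at 0.063, Cxadr at 0.070, Cenph at 0.071 and Slc38a4 at 0.082.

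The sign of the family's change rested on how the arrays were scaled. Between arrays numbered 2 the ratio of knockout to wild type depended on brightness, and the gamma crystallins lie at the bright end. As deposited, the median ratio there was 0.77 for other probe sets ranked 1 to 50, 0.52 for those ranked 201 to 500 and 0.45 for those ranked 1001 to 2000. Between arrays numbered 1 the same medians were 0.92, 0.90 and 0.89. The 6 single-gene gamma crystallin probe sets had a median ratio of 0.96 within number 1 (0.89 to 1.02) and 0.82 within number 2 (0.77 to 0.95). The highest intensities of the arrays numbered 2 had a ratio of 1.00. Both belonged to gamma crystallin probe sets, Crygf in wild type and that of Crygc and Crygb in knockout, so this ratio is no separate reference. The intensities at rank 1000 had a ratio of 0.46. Why the ratio changes with brightness was not tested.

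**Figure D2:**
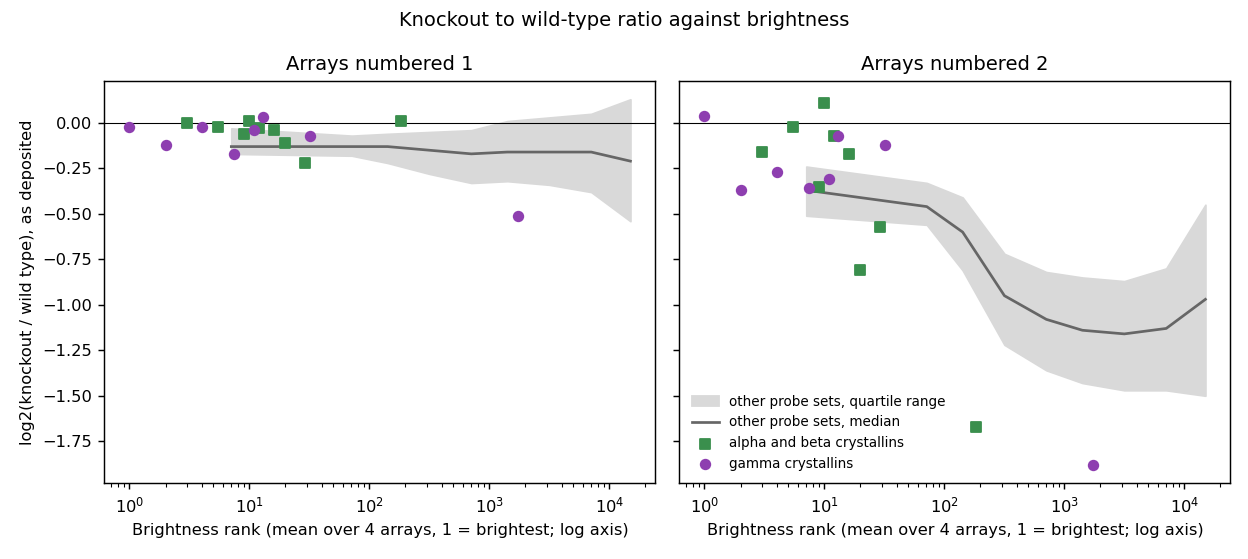
Log2 ratio of knockout to wild type in deposited intensity against brightness rank (log axis), for arrays numbered 1 on the left and 2 on the right; the line and band are the median and quartile range of probe sets that are no crystallins, in bins of rank. Within number 2 the median falls from -0.37 at ranks 1 to 50 to -1.14 at ranks 1001 to 2000, and gamma (circles) and alpha and beta crystallins (squares) lie mostly at the left end.

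The 7 probe sets that name gamma crystallins alone had a median log2 change of -0.15 with the values as deposited and of -0.03 with quantile normalization. With one factor per array, the median was 0.29 with median centring and 0.48 with the trimmed mean. It was 0.14 when each array was set to the median of the other probe sets among the 100 brightest, and 0.47 when set to those that follow, down to rank 1000. For Crygs the values were -0.17 as deposited, 0.26 with median centring, 0.45 with the trimmed mean and 0.11 against the top 100. No direction is therefore given for the family or for Crygs. The median over all tested probe sets was -0.42 as deposited, -0.13 with median centring and -0.24 against the top 100.

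**Figure D3:**
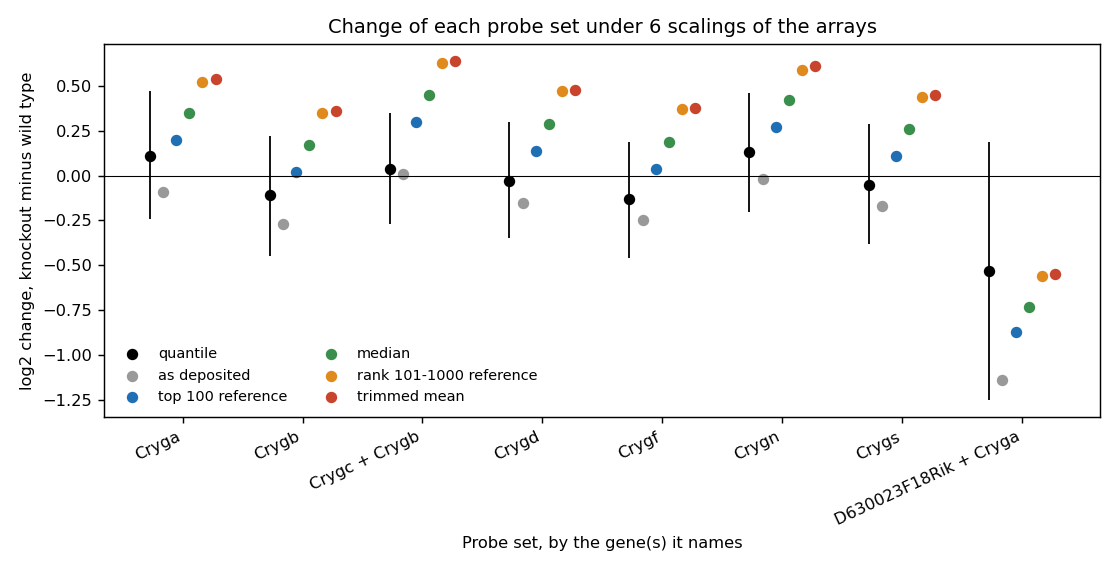
Log2 change (knockout minus wild type) of each of the 8 probe sets under 6 scalings of the arrays, shown as coloured points; the black line is the 95% interval of limma with quantile normalization. The 7 probe sets of gamma crystallins alone lie between -0.13 and 0.13 with quantile normalization and between 0.36 and 0.64 with the trimmed mean, while that of D630023F18Rik and Cryga is below 0 in each scaling.

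Differences between members on the same arrays do not depend on one factor per array, and the ratios of the members were not equal. A ratio that changes with brightness can still enter these differences, because the members differ in rank. Within number 2 the ratio of intensities at equal rank was 0.84 at rank 10 and 0.77 at rank 50. Brightness was not corrected for here. Each log2 ratio of knockout to wild type in deposited intensity was set against the median of the 7 probe sets. Crygb lay below that median by -0.14 within number 1 and -0.09 within number 2. Crygf lay below it by -0.09 and -0.10. Crygn lay above it, by 0.07 and 0.21, as did the probe set of Crygc and Crygb, by 0.02 and 0.31. Crygd had 0.02 and 0.00, Crygs 0.00 and -0.04, and Cryga -0.03 and 0.15. The values come from 1 pair of arrays per number and were not tested. Against the 85 probe sets of other genes among the 100 brightest, the ratio of Crygn was above that of 81 within each number, and the ratio of Crygb was above that of 23 within number 1 and 48 within number 2. Crygs was above 71 and 59 of them.

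**Figure D4:**
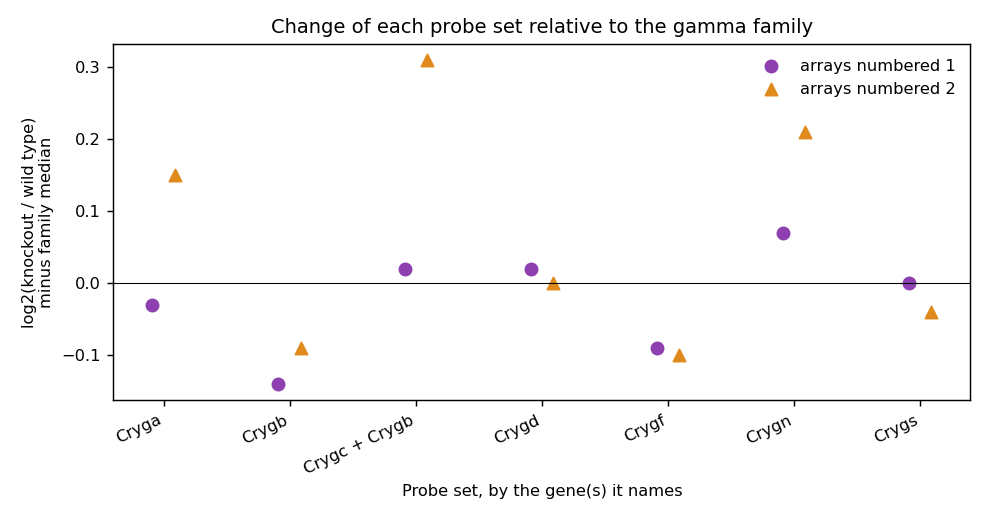
Log2 ratio of knockout to wild type of each probe set minus the median of the 7 probe sets that name gamma crystallins alone, with circles for arrays numbered 1 and triangles for arrays numbered 2. Crygb and Crygf are below 0 in both, Crygn and the probe set of Crygc and Crygb above 0 in both, and Crygs lies at 0.00 and -0.04.

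The alpha and beta crystallins, the other main soluble lens proteins, had a median change close to that of the gamma family on the same arrays. Over their 9 tested probe sets the median change was 0.00 with quantile normalization and 0.52 with the trimmed mean. The gamma median minus the alpha and beta median was -0.03 with quantile normalization and -0.04 under each other of the 6 scalings. Those others use at most a single factor per array, which moves both families alike, so their agreement was fixed in advance. The alpha and beta probe sets were more spread, from -0.82 to 0.06 as deposited, against -0.27 to 0.01 for the 7 gamma probe sets. With quantile normalization they ran from -0.26 to 0.17, against -0.13 to 0.13. The lowest was Crybb2, dimmer than the others at a mean rank of 185, and the next was Cryab at -0.24. The gamma range leaves out the dim probe set of D630023F18Rik and Cryga, at -0.53. Of the 8 alpha and beta genes, by the brightest probe set of each, 0 passed limma's threshold and 0 had an unadjusted p under 0.05. Among all tested probe sets 0.0178% passed, and 524 of 22519 had an unadjusted p under 0.05. The genes with the lowest p were Cryab, a small heat shock protein, at -0.24, and Crybb1 at 0.17.

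Transcription factors and RNA-binding proteins linked to crystallin expression were listed with results of these data known. Of 17 tested genes, 0 passed in limma, against 0.0178% of all tested probe sets. Hsf4 itself was the 1 gene with an unadjusted p under 0.05, against 524 of the 22519 probe sets tested. The median log2 change was -0.01. Within both numbers 5 of the 17 were lower and 5 higher, against 27.4% and 25.9% of all tested probe sets. Hsf4 had 1.36 (SE 0.60, adjusted p = 1.00). Sox3, a factor of the group that includes the crystallin activators Sox1 and Sox2, measured 74.0 and 32.7 in wild type and 47.3 and 5.77 in knockout, a log2 change of -0.83 (adjusted p = 1.00). Maf, a factor that binds crystallin promoters, measured 2131 and 1266 in wild type and 1833 and 1185 in knockout, with -0.15. Prox1, needed for fibre elongation, had 0.44. Maf and Prox1 were named after their values were seen.

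Among 10 tested genes of lens fibre cells, the cells that hold the gamma crystallins, the median log2 change was -0.01. Of these genes 0 passed in limma, against 0.0178% of all tested probe sets. An unadjusted p under 0.05 was found for 2, against 524 of the 22519 probe sets tested. Both were lower on the knockout arrays, in a list whose log2 changes ran from -1.25 to 1.00, the highest being that of Bfsp2. Bfsp1, filensin of the beaded filament, measured 5219.6 and 3785 in wild type and 2186 and 2060.1 in knockout, a log2 change of -1.06 (SE 0.21, adjusted p = 0.542). Dnase2b, which degrades DNA of fibre cell nuclei, had -1.25 (SE 0.36, adjusted p = 1.00). Of the 10 lens epithelium genes, 0 passed and 0 had an unadjusted p under 0.05, against the same shares of all tested probe sets. Their median was -0.02, and the lowest p were those of Tfap2a at -0.71 and Mafg at 0.41. Grifin, a lens galectin named after its values were seen, was at 1704 and 1618 in wild type and 1909 and 1771 in knockout.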

How the data were processed

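RNA of 4 newborn lens samples was measured on an Affymetrix mouse array with 45101 probe sets, 64 of them controls. RNA from lenses stored in RNAlater was column-purified and treated with DNase, and biotin-labelled targets were hybridised, per the labels' protocols. The deposited values are linear intensities, 1 for each probe set on each array, and how the authors summarised the probes is not stated in the labels.

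The deposited intensities were quantile normalized, 16 was added and log2 was taken. The 22519 non-control probe sets at or above the median of the mean log2 values (4.86, an intensity of about 13.0), all 8 gamma crystallin ones included, were fitted with limma 3.58.1 in R 4.3.3 with an intensity trend. The fitting code was run on simulated data with independent noise on each array. Those data lack the brightness dependence and the shared deviations of same-numbered arrays, so the run does not assess the fit to these arrays. Probe sets were named from GEO's platform annotation: 34945 had 1 gene symbol, 932 several and 9160 none. In lists, a gene was represented by its brightest probe set with 1 symbol.

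The members, lists and rules were chosen with earlier results of these data known. Named were all member probe sets, Hsf4, the members of each list past the threshold or the 2 with the lowest p, and the 5 genes nearest in profile. Marker lists of other tissues are given as sums. The alternatives were other scalings, filters at no level and at the 70th percentile, offsets of 1 and 64, no trend, a replicate block, genes in place of probe sets, and each array left out. The number of arrays limits the precision.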

Additional observations from a re-analysis of the deposited data

How the results depend on the processing

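No gamma crystallin probe set passed limma's threshold under the alternatives run, and their adjusted p ranged from 0.190 to 1.00. With all 4 arrays and no replicate block 0 had an unadjusted p under 0.05, and with the block 1 did, that of D630023F18Rik and Cryga (log2 -0.53, adjusted p = 0.190). The 2 pairs share only a number in the labels; same-numbered arrays deviated together with a correlation of 0.43 over 22519 probe sets. Over all probe sets the count of calls was 317 with the replicate block, against 4 without it (2011 and 524 at an unadjusted p under 0.05). It was 2 with median centring and 11 with the top 100 reference, which was chosen after seeing the data. It was 0 in limma with values as deposited, the reference that follows the top 100 down to rank 1000 (the wider reference), no filter and the mean of a gene's probe sets, with 22, 402, 1432 and 271 at an unadjusted p under 0.05. Leaving out 1 array gave from 5 to 663 calls, with 663 without knockout array 1 and 95 without knockout array 2. Such a fit takes its spread from the group that keeps 2 arrays and assumes that the lone array varies alike, so it says little about stability.

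The median log2 change of the 8 probe sets was -0.16 as deposited, 0.47 with the trimmed mean, 0.28 with median centring, 0.45 with the wider reference and 0.13 with the top 100, and from -0.08 without knockout array 1 to 0.03 without knockout array 2. Of 120 values of single probe sets 20 reversed. In the order trimmed mean, median centring, wider reference and top 100, Crygd had 0.48, 0.29, 0.47 and 0.14, Crygs 0.45, 0.26, 0.44 and 0.11, Crygb 0.36, 0.17, 0.35 and 0.02, and Crygf 0.38, 0.19, 0.37 and 0.04. Leaving out 1 array, Crygd ranged from -0.12 to 0.05 and Crygs from -0.10 to 0.02, the highest values both being without knockout array 2. As deposited Cryga had -0.09 and Crygn -0.02. These scalings weight dim and bright probe sets differently; the cause of the brightness dependence was not tested.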
